A study of Mus musculus with 6 samples.

Results

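The glypicans and syndecans are the main heparan sulfate proteoglycans of the cell surface, and their mRNAs were compared between mouse embryonic stem cells (ESCs) and the epiblast-like cells (EpiLCs) derived from them. All genes of both families were taken by symbol, Gpc1 to Gpc6 and Sdc1 to Sdc4, which gave 10 of the 24736 genes in the count table. The WT line of the study was the male (XY) HM1 TetON line, from which all of its other lines were made, so that both groups were 1 cell line. ESCs were collected at 0 h, undifferentiated, after culture on inactivated mouse embryonic fibroblast feeders in knockout DMEM with 10% serum and 1000 U/ml of the cytokine LIF. EpiLCs were collected at 48 h from feeder-depleted cells in N2/B27 basal medium with 10 ng/ml basic FGF and 5 µM LGK974, a porcupine inhibitor that blocks WNT secretion. Feeders, serum, LIF, FGF, LGK974 and time all changed together between the groups and cannot be told apart. Each group had 3 replicate libraries, with 16967741 to 28521848 expected counts in ESCs and 30683164 to 35096210 in EpiLCs.

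Heparan sulfate proteoglycans are core proteins that carry long sulfated sugar chains, and the chains bind FGFs, WNTs, BMPs and hedgehog proteins and their receptors. Glypicans are held on the outer face of the membrane by a lipid (GPI) anchor and can be released by cleavage of the anchor, whereas syndecans cross the membrane and have a short cytoplasmic tail that binds PDZ-domain proteins. In mouse ESCs the chains are known for their role in FGF4 signalling and in the exit from self-renewal.

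Stage identity was checked with marker lists. All 7 naive pluripotency markers were lower in EpiLCs, with a summed level of 1474 to 1948 TPM (transcript abundance scaled for transcript length and library size) in ESCs and 47.1 to 67.5 TPM in EpiLCs. One of them, Prdm14, had 2, 2 and 7 counts in EpiLC replicates 1, 2 and 3. It passed the filter on low counts only through the ESC libraries, so that its call is a description. All 5 formative epiblast markers were higher, with sums of 293 to 399 TPM and 2055 to 2125 TPM. Of 4 general pluripotency genes, 1 was higher and 2 were lower, and their sum stayed between 1997 and 2301 TPM across the 6 libraries. Fibroblast markers, by contrast, split the ESC libraries. The 14 genes summed to 307, 1638 and 105 TPM in ESCs (replicates 1, 2 and 3), and to 65.9 to 75.9 TPM in EpiLCs. Col1a1, a collagen chain of fibroblasts, was at 90.5, 489 and 28.3 TPM in the ESC libraries 1, 2 and 3 and at 3.08 to 13.9 TPM in EpiLCs, whereas Fap was at 0 in ESC replicate 1 and in all EpiLCs and Lum was at 0 in ESC replicate 3 and in EpiLC replicates 1 and 2. Of the 12 fibroblast markers that were tested, 7 were lower in EpiLCs and 0 were higher, and all 12 had the ESC order replicate 2 above 1 above 3. Markers of other embryonic lineages were also higher in ESCs. The 5 primitive streak markers summed to 412, 158 and 124 TPM in the ESC libraries 1, 2 and 3 and to 7.59, 7.82 and 44.6 TPM in EpiLCs, and 4 of 5 were lower in EpiLCs. Among them, Mesp1 had 0, 5 and 2 counts and Evx1 5, 0 and 49 counts in EpiLC replicates 1, 2 and 3. Neither would have passed the filter without the ESC libraries, so that their calls are a description. Mesp1 was at 0 in EpiLC replicate 1 and Evx1 in EpiLC replicate 2, whereas T reached 30.7 TPM in EpiLC replicate 3. The 6 primitive endoderm markers summed to 56.1, 42.2 and 32.4 TPM in ESCs and to 10.1 to 10.5 TPM in EpiLCs, and 4 of 6 were lower. Results that rest on ESC replicate 2 are given with and without it.

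The genes lie on 8 chromosomes of GRCm38.p6 (RefSeq coordinates), and the glypicans form 2 tandem pairs. Gpc4 (chrX:52051007-52164923) and Gpc3 (chrX:52272426-52613974) lie on the minus strand 107.5 kb apart, and Gpc5 (chr14:115092201-116525192) and Gpc6 (chr14:116924920-117979529) on the plus strand 399.7 kb apart, with no coding gene between either pair. Gpc1 lies at chr1:92831645-92860211 and Gpc2 at chr5:138273657-138280026. Sdc1 lies at chr12:8771396-8793716, Sdc2 at chr15:32920723-33034721, Sdc3 at chr4:130792537-130826318 and Sdc4 at chr2:164424247-164443188. Gpc2 shares exon sequence on the same strand with Gm43720 in the GENCODE annotation, so its count may hold reads of that gene, which the count table does not list.

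RefSeq promoter sequences matched 7 of the 10 genes (Gpc2, Gpc3, Gpc4, Gpc5, Sdc1, Sdc3 and Sdc4). The 250 bases before the start are shown for the glypican with the largest fall (Gpc3), for the glypican with the lowest level (Gpc5) and for the syndecan whose level differed least between the groups (Sdc4). They are written 5′ to 3′ on the strand of the gene, with GC boxes (GGGCGG or, on the other strand, CCGCCC) in capitals, and span chrX:52613975-52614224 (minus strand), chr14:115091965-115092214 (plus strand) and chr2:164443189-164443438 (minus strand) of GRCm38.p6. The RefSeq span of the Gpc5 gene begins within the last bases of its window.
Gpc3: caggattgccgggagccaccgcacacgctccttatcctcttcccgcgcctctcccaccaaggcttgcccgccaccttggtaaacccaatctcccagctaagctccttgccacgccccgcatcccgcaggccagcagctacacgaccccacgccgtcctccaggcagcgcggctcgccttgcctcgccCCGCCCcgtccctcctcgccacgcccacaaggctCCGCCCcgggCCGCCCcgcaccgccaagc
Gpc5: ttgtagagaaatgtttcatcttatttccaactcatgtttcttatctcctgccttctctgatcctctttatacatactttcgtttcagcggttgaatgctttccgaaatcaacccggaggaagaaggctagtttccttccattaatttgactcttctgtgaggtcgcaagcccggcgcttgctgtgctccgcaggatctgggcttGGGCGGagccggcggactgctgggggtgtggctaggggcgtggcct
Sdc4: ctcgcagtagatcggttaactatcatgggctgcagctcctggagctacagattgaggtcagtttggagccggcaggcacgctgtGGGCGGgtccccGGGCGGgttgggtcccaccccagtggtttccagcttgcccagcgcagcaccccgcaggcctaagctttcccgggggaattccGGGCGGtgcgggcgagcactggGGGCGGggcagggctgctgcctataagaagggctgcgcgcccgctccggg

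The Gpc3 and Sdc4 stretches had G+C contents of 71.6% and 68.0%, with 25 and 19 CpG dinucleotides and 3 and 4 GC boxes. Gpc5 had 51.2%, 12 CpGs and 1 GC box. The median over 32851 mouse promoters of this length was 52.4% and 6 CpGs. A GC box was found in 7 of the 7 matched promoters of the family and in 32.7% of all promoters. TATAAA (both strands searched) was found in Gpc5 alone of the 7, against 12.4% of all promoters. The SOX core ACAATG was found in Gpc2 alone, against 10.7%, and the octamer ATGCAAAT in 0 of 7, against 1.6%. The Gpc2 window (chr5:138279938-138280187, minus strand) overlaps the RefSeq span of the gene, which ends at 138280026. Its SOX core lies in that overlap, within the gene and not before its start. These matches describe the letters only.

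Of the 10 genes, all of which passed the filter on low counts, 3 rose and 2 fell at an adjusted p of at most 0.05 (edgeR's quasi-likelihood test with Benjamini-Hochberg adjustment over all 14468 genes tested, called the edgeR adjusted p hereafter), and 5 did not pass. Over all genes, 45.4% passed, 22.6% with a higher and 22.8% with a lower level in EpiLCs, so the share of 50.0% in the family lay near the background. The 5 that passed were all glypicans, and 0 of 4 syndecans passed. Gpc5, among the 3 that rose, passed the filter only through the libraries where it is high and so had to differ, and with at least 10 counts required in every sample it was not tested and 2 of the genes were higher. Leaving out EpiLC replicate 2 or 3 left 1 gene higher, which was Gpc5 in both fits, and 1 lower. Leaving out EpiLC replicate 1 left 2 higher and 1 lower, and leaving out ESC replicate 3 gave 2 higher and 4 lower. Gpc5 was among those higher in these fits as well. The median log2 fold change of the 10 genes was -0.28, against -0.0017 over all genes. The TPM of the groups did not overlap for 6 of the 10 genes, 4 of them with EpiLCs above and 2 below, and for 59.5% of all genes.

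**Figure D1:**
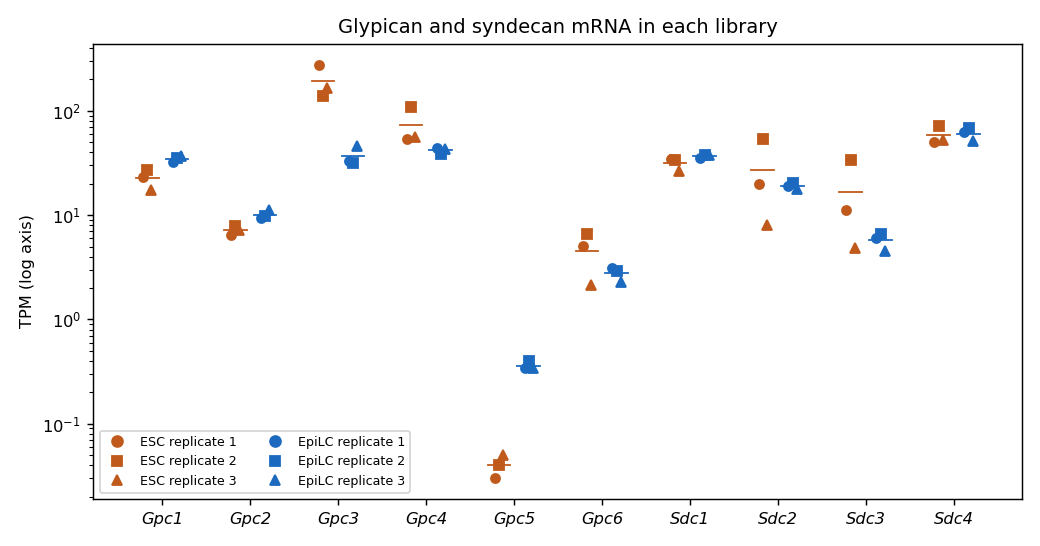
TPM (log axis) of each glypican and syndecan gene in the 3 ESC libraries (orange) and the 3 EpiLC libraries (blue), with replicates 1, 2 and 3 as circles, squares and triangles and horizontal lines at the group means. Gpc3 sits at 139 to 277 TPM in ESCs and 31.6 to 46.1 TPM in EpiLCs, and the ESC points of Sdc2 and Sdc3 are spread far wider than the EpiLC points.

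Among the glypicans, Gpc3 was the most abundant family member in ESCs and fell the most. GPC3 binds WNT and hedgehog ligands, and its loss causes the Simpson-Golabi-Behmel overgrowth syndrome. Its level was 277, 139 and 167 TPM in ESCs (replicates 1, 2 and 3), and 32.9, 31.6 and 46.1 TPM in EpiLC replicates 1, 2 and 3. The lowest ESC library was therefore above the highest EpiLC library, and the means were 194 ± 73.1 and 36.8 ± 8.03 TPM (SD, n = 3). The log2 fold change was -2.45 (SE 0.29, 95% interval -3.12 to -1.77, edgeR adjusted p = 0.000853), and it stayed between -2.64 and -2.12 and past the threshold when each library in turn was left out. ESC replicate 2, the library with the highest fibroblast markers, had the lowest Gpc3 of the 3 ESC libraries, and without it the log2 fold change was -2.64, with fibroblast marker sums of 307 and 105 TPM in the ESC libraries that were left. The summed primitive streak markers and the summed primitive endoderm markers were, like Gpc3, highest in ESC replicate 1 and lower in EpiLCs, as given above. Of these 11 markers, 8 were highest in ESC replicate 1, as were 4126 of all 14468 genes tested. The full ESC order of Gpc3, replicate 1 above 3 above 2, was that of 3 markers (Eomes, Mesp1 and Gata6) and of 15.1% of all genes tested. T, Mixl1, Evx1, Gata4 and Dab2 had the order replicate 1 above 2 above 3, whereas Sox17 and Sox7 were highest in replicate 2 and Foxa2 in replicate 3. Eomes, a streak marker, was at 115, 45.1 and 50.7 TPM in the 3 ESC libraries and at 5.83, 5.70 and 10.4 TPM in EpiLCs. Without ESC replicate 1 the log2 fold change of Gpc3 was -2.12, and the part of these markers in the Gpc3 result was not tested. In bulk RNA, fewer cells of a type and less RNA per cell cannot be told apart.

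Gpc4, its neighbour on the X chromosome, also fell, by a smaller factor. GPC4 is a modulator of FGF and WNT signalling. Its level was 54.1, 108 and 56.7 TPM in the ESC libraries 1, 2 and 3, and 44.0, 38.3 and 43.3 TPM in EpiLC replicates 1, 2 and 3. Every ESC library was above every EpiLC library, and ESC replicate 2 was far above the other ESC libraries. The log2 fold change was -0.85 (SE 0.26, 95% interval -1.47 to -0.22, edgeR adjusted p = 0.0359). Without ESC replicate 2 it was -0.46 with an edgeR adjusted p of 0.00818, whereas leaving out EpiLC replicate 1, 2 or 3 ended the call, at adjusted p = 0.088, 0.112 and 0.0885. With limma on log2(TPM + 1) the call was also lost (-0.71 on that scale, adjusted p = 0.0529). The ratio of Gpc3 to Gpc4 TPM was 5.13, 1.29 and 2.95 across the ESC replicates, as against 0.746, 0.825 and 1.06 in EpiLCs.

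Gpc1 and Gpc2 rose modestly. GPC1 is an FGF2-binding glypican abundant in the nervous system, and GPC2 (cerebroglycan) is known from developing neurons. Gpc1 was at 23.4, 26.8 and 17.6 TPM in ESCs (replicates 1, 2 and 3) and at 32.4, 35.2 and 36.6 TPM in EpiLCs. Its groups did not overlap, and the log2 fold change was 0.57 (SE 0.15, 95% interval 0.22 to 0.93, edgeR adjusted p = 0.0184). Without ESC replicate 2 it was 0.71, while without EpiLC replicate 2 or 3 it was 0.58 and 0.53 and the adjusted p rose to 0.0552 and 0.0617. Gpc2 was at 6.38, 7.79 and 7.23 TPM in ESCs and at 9.44, 9.75 and 11.1 TPM in EpiLCs, again without overlap. Its log2 fold change was 0.45 (SE 0.14, 95% interval 0.11 to 0.79, edgeR adjusted p = 0.0388). That call held in 1 of the 6 fits that left out a library (without ESC replicate 2, adjusted p = 0.0291) and was lost in the other 5, with adjusted p from 0.0507 (without ESC replicate 3) to 0.122 (without EpiLC replicate 3).

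The tandem neighbours Gpc5 and Gpc6 were the lowest members. Both are glypicans of developing organs, and loss of GPC6 causes the skeletal disorder omodysplasia. Gpc5 had 1, 1 and 2 counts in ESC replicates 1, 2 and 3 and 16, 18 and 14 counts in EpiLCs, which correspond to 0.03 to 0.05 TPM and 0.34 to 0.40 TPM. It passed the filter only through the EpiLC libraries. Summed per group and scaled by library size, the EpiLC level was 8.13 times the ESC level, with an exact 95% counting interval of 2.98 to 31.1 that covers counting error only. The fitted log2 fold change of 2.89 (edgeR adjusted p = 0.00193) depends on the filter and on the prior count and is given as a description. Gpc6 was at 5.03, 6.56 and 2.14 TPM in the ESC libraries 1, 2 and 3 and at 3.11, 2.90 and 2.28 TPM in EpiLCs, with ESC replicate 3 below all EpiLCs. The log2 fold change was -0.77 (95% interval -1.66 to 0.12, edgeR adjusted p = 0.133). Without ESC replicate 3 it was -1.10 with an adjusted p of 0.00438, and without ESC replicate 2 it was -0.42 with an adjusted p of 0.34.

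The syndecans divided into a pair with tight values and a pair with wide ESC values. Sdc4, a widely expressed syndecan of focal adhesions, was at 50.6, 71.9 and 52.6 TPM in ESCs (replicates 1, 2 and 3) and at 62.4, 67.7 and 51.0 TPM in EpiLCs. The groups overlapped, and the log2 fold change was -0.0026 (95% interval -0.38 to 0.37, edgeR adjusted p = 0.991), an estimate so near 0 that its sign turned with the settings tried. Sdc1, the epithelial syndecan, was at 34.4, 33.7 and 26.2 TPM in ESCs and at 35.0, 37.9 and 37.6 TPM in EpiLCs. Every EpiLC library was above every ESC library by TPM, yet the log2 fold change of 0.18 (95% interval -0.08 to 0.44, edgeR adjusted p = 0.221) did not pass.

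Sdc2 and Sdc3 varied more among the ESC libraries than between the groups. Sdc2, a syndecan of mesenchymal cells, was at 19.9, 54.0 and 7.98 TPM in the ESC libraries 1, 2 and 3 and at 19.2, 20.3 and 17.8 TPM in EpiLCs. Its log2 fold change was -0.55 (95% interval -1.95 to 0.84, edgeR adjusted p = 0.47), and without ESC replicate 2 it turned to 0.41 (adjusted p = 0.333). Sdc3, the main syndecan of the nervous system, was at 11.2, 34.0 and 4.80 TPM in ESCs and at 6.05, 6.54 and 4.56 TPM in EpiLCs. The ESC libraries thus spanned a range that held 2 of the 3 EpiLC values. Its log2 fold change was -1.58 (95% interval -3.09 to -0.08, edgeR adjusted p = 0.0805), which became -0.53 (adjusted p = 0.227) without ESC replicate 2 and -2.02 (adjusted p = 0.0107) without ESC replicate 3.

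**Figure D2:**
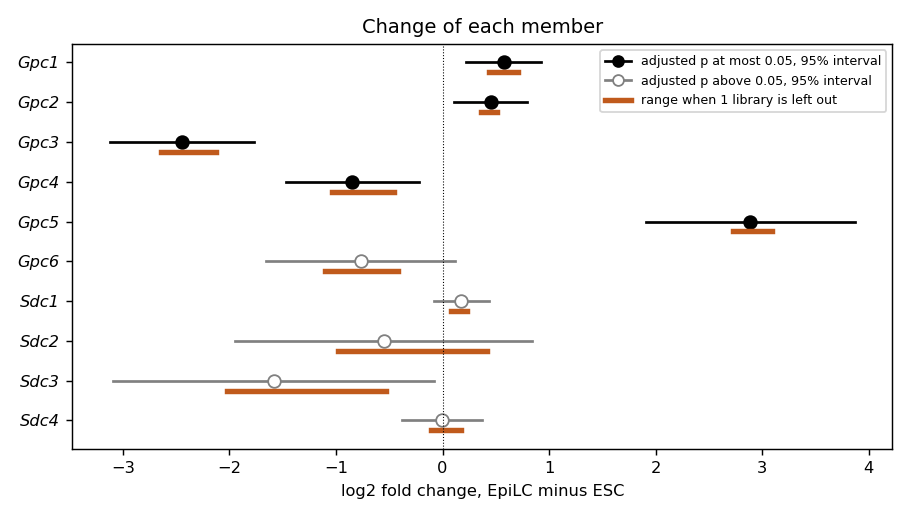
Log2 fold change of each gene, EpiLC minus ESC, with its 95% interval (filled black where the adjusted p was at most 0.05, open grey otherwise) and, as an orange bar under it, the range of the fold change when 1 library was left out. Gpc3 stays at -2.64 to -2.12, whereas the bars of Sdc2 and Sdc4 cross 0.

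The spread among ESC libraries ran beside the fibroblast markers for some of the genes. Gpc1, Gpc6, Sdc2 and Sdc3 had the ESC order replicate 2 above 1 above 3 that all 12 tested fibroblast markers had, which is 4 of 10 genes, against 26.1% of all genes tested. Gpc1 was the only gene with the full order that passed the test. The part of the fibroblast marker difference in the results for Gpc4, Gpc6, Sdc2 and Sdc3 was not tested.

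**Figure D3:**
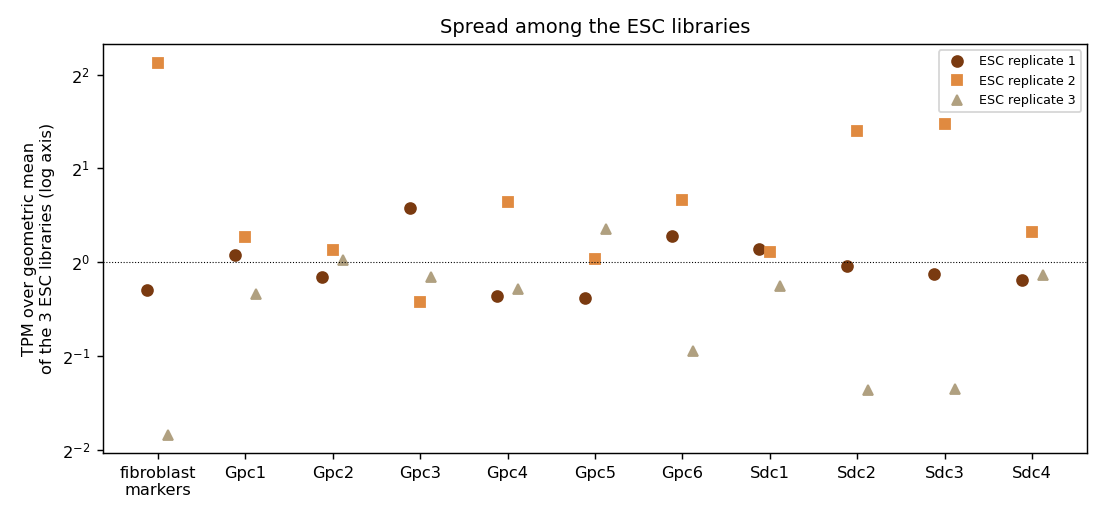
TPM of the summed fibroblast markers and of each gene in the 3 ESC libraries, divided by the geometric mean of the 3 (log axis, dotted line at 1). ESC replicate 2 (squares) is the highest and replicate 3 (triangles) the lowest for the fibroblast markers, Gpc1, Gpc6, Sdc2 and Sdc3, whereas Gpc3 is highest in replicate 1.

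Because TPM is scaled for transcript length, levels can be compared between the genes. The summed TPM of the 6 glypicans was 366, 288 and 251 for ESC libraries 1 to 3, as against 122, 118 and 140 in EpiLCs, without overlap (means 301 ± 58.8 and 127 ± 11.4, SD, n = 3). The 4 syndecans summed to 116, 194 and 91.6 TPM in ESCs and to 123, 132 and 111 TPM in EpiLCs, and these groups overlapped. Both families together summed to 435 ± 80.4 TPM in ESCs and 249 ± 3.29 TPM in EpiLCs. The ratio of glypican to syndecan TPM was 3.15, 1.49 and 2.74 in ESCs and 0.996, 0.893 and 1.26 in EpiLCs. These sums and ratios are given as a description and were not tested.

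The shares of each gene within its family are given as a description, with no test. Gpc3 made up 63.5 ± 14.0% of glypican TPM in ESCs and 28.9 ± 3.58% in EpiLCs (SD, n = 3). Gpc1 went from 7.57 ± 1.54% to 27.5 ± 2.00%, Gpc2 from 2.44 ± 0.614% to 7.98 ± 0.262%, and these did not overlap between the groups. Gpc4 was at 24.9 ± 11.5% and 33.1 ± 2.60%, and its groups overlapped. Shares within a pool depend on each other, so that a lower Gpc3 raises the shares of the rest. Of the syndecan TPM, Sdc4 made up 46.0 ± 10.4% in ESCs and 49.3 ± 2.92% in EpiLCs, Sdc1 25.2 ± 6.78% and 30.3 ± 3.08%, Sdc2 17.9 ± 9.62% and 15.7 ± 0.351%, and Sdc3 10.8 ± 6.25% and 4.66 ± 0.476%.

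**Figure D4:**
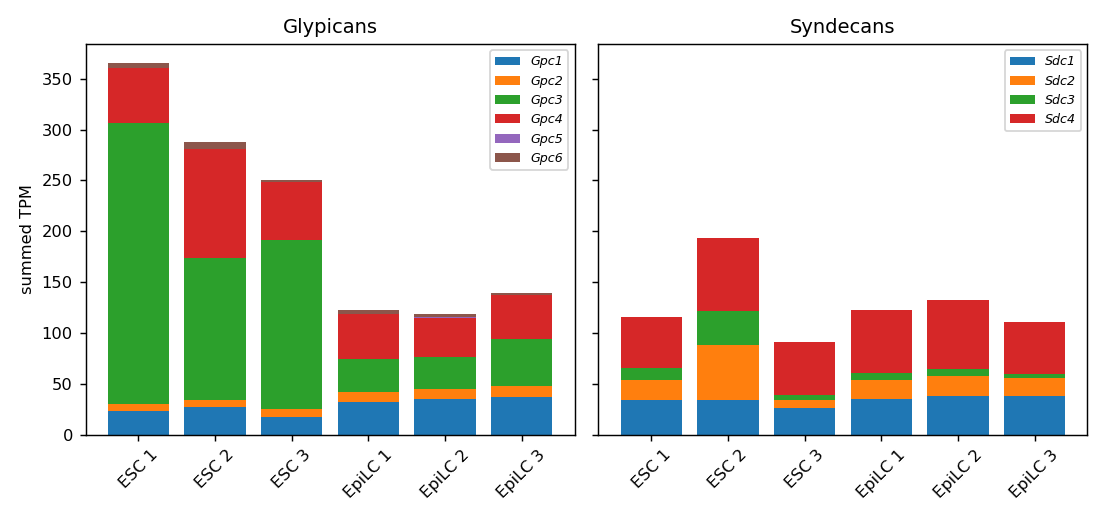
Summed TPM of the 6 glypicans (left) and the 4 syndecans (right) in each library, stacked by gene from an axis that starts at 0. The glypican bars are 251 to 366 TPM in ESCs, mostly Gpc3, and 118 to 140 TPM in EpiLCs, whereas the syndecan bars are 91.6 to 194 TPM and 111 to 132 TPM.

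By mean level the ESC order was Gpc3, Gpc4, Sdc4, Sdc1, Sdc2, Gpc1, Sdc3, Gpc2, Gpc6 and Gpc5. Among neighbours in that order, the ranges of the 3 libraries were apart for Gpc3 and Gpc4, for Sdc4 and Sdc1, and for Gpc6 and Gpc5, and overlapped for the other neighbours. In EpiLCs the order was Sdc4, Gpc4, Gpc3, Sdc1, Gpc1, Sdc2, Gpc2, Sdc3, Gpc6 and Gpc5. There the ranges overlapped between Gpc4 and Gpc3, Gpc3 and Sdc1, and Sdc1 and Gpc1, and were apart between the other neighbours. Sdc4, at 60.4 ± 8.55 TPM (SD, n = 3), thus stood first in EpiLCs with no overlap with Gpc4, at 41.9 ± 3.10 TPM.

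The chains that these core proteins carry are made and altered by enzymes, and 75 genes of heparan sulfate metabolism and related functions were examined in 9 lists. Of the 70 that were tested, 8 were higher and 22 were lower in EpiLCs (42.9% in all, against 45.4% of all genes), with a median log2 fold change of -0.17. With at least 10 counts in every sample, 5 were higher and 21 were lower. Leaving out ESC replicate 2 gave 13 higher and 21 lower, and without EpiLC replicate 1, 7 were higher and 14 were lower. Of the 70 genes, 41 had the ESC order of the fibroblast markers, against 26.1% of all genes tested, and the same order was seen in 12 of the 22 that fell and 2 of the 8 that rose. The part of the fibroblast marker difference in these lists was not tested.

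The linkage sugars join the chain to the protein, and the 7 genes for this step had a median log2 fold change of 0.03. Of these, 0 were higher and 1 was lower (14.3% in all, against 45.4% of all genes). That gene was Pxylp1, a phosphatase of the linkage xylose, at 3.84, 10.4 and 3.30 TPM in ESCs (replicates 1, 2 and 3) and at 1.09 to 1.27 TPM in EpiLCs. Its log2 fold change was -2.34 (edgeR adjusted p = 0.00665) and -1.65 without ESC replicate 2. Of 5 polymerisation genes, 0 were higher and 2 were lower (40% in all, against 45.4% of all genes, median -0.13). Ext1 and Ext2 form the polymerase together. Ext2 was at 31.3, 36.2 and 28.4 TPM in ESCs and at 20.7 to 25 TPM in EpiLCs (log2 fold change -0.52, edgeR adjusted p = 0.00931), whereas Ext1 was at 42.9 to 59.4 TPM and at 43.9 to 50.9 TPM, and its groups overlapped (-0.13, adjusted p = 0.395). Extl1, at 0.61 to 2.08 TPM in ESCs and 0.38 to 0.58 TPM in EpiLCs, was lower by -1.37 on the log2 scale (adjusted p = 0.0479), a call that held in 1 of 6 fits without a library (without ESC replicate 2, adjusted p = 0.0101) and was lost in the rest, with adjusted p from 0.0752 (without ESC replicate 1) to 0.154 (without EpiLC replicate 1). It was also lost with limma on log2(TPM + 1) and log2(TPM + 0.1) (adjusted p = 0.101 and 0.0882) and with upper-quartile normalization (0.0529).

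NDST enzymes start sulfation, and HS3ST enzymes add the rare 3-O-sulfate. Of 12 modification genes tested of 16 listed, 4 were higher and 1 was lower (41.7% in all, against 45.4% of all genes). With at least 10 counts in every sample, 1 was higher and 1 was lower. The number lower was 3 without ESC replicate 3, and 2 with DESeq2, with RLE normalization and with no filter. Ndst4, Hs6st3, Hs3st2 and Hs3st3a1 were too low to be tested. Hs3st3b1 fell from 8.42, 4.36 and 6.63 TPM in the ESC libraries 1, 2 and 3 to 0.79 to 1.02 TPM in EpiLCs (log2 fold change -2.92, edgeR adjusted p = 0.000357). Hs3st4, Hs3st5 and Ndst3, which are 3 of the 4 called higher, were at no more than 0.10 TPM in ESCs and at 0.46 to 0.69, 0.41 to 0.75 and 0.33 to 0.40 TPM in EpiLCs. These 3 genes had 6, 7 and 12 counts in all in the ESC libraries and passed the filter only through EpiLCs, so that their calls are a description. The ratios of their summed counts, scaled by library size, were 8.36 (exact 95% counting interval 3.66 to 23.5), 7.94 (3.68 to 20.4) and 5.25 (2.87 to 10.5). Ndst2 was at 4.28 to 5.68 TPM in ESCs and 7.56 to 8.52 TPM in EpiLCs (0.66, adjusted p = 0.00831). Ndst1, at 9.92 to 14.1 TPM in ESCs and 10.5 to 11.1 TPM in EpiLCs, did not pass (-0.15, adjusted p = 0.363).

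Of 8 remodelling and shedding genes tested of 9, 0 were higher and 3 were lower (37.5% in all, against 45.4% of all genes), and Hpse2 was not tested. Without ESC replicate 3, 5 were lower. Notum, a secreted enzyme that removes the lipid of WNT proteins, binds glypicans and is a known WNT target gene, fell from 18.04, 28.55 and 14.96 TPM in ESCs (replicates 1, 2 and 3) to 1.31, 0.86 and 1.29 TPM in EpiLCs. This was the largest change of the list genes, with a log2 fold change of -4.19 (edgeR adjusted p = 0.000192). Mmp14, a membrane metalloprotease that sheds syndecans, was at 36.1, 63.7 and 21.1 TPM in ESCs and at 16.98 to 20.29 TPM in EpiLCs (-1.19, adjusted p = 0.0319). Without ESC replicate 2 its log2 fold change was -0.70 (adjusted p = 0.0312), and the call was lost without ESC replicate 1 (adjusted p = 0.0567) and without EpiLC replicate 1, 2 or 3 (adjusted p = 0.101, 0.0756 and 0.0949). With limma on log2(TPM + 1) and log2(TPM + 0.1) it was 0.0588 and 0.0544. SULF enzymes remove 6-O-sulfates from finished chains. Sulf2 was at 88.1 to 95.6 TPM in ESCs and 69.7 to 80.2 TPM in EpiLCs (-0.34, adjusted p = 0.00822), and Sulf1 at 66.3, 107 and 49.4 TPM in ESCs and 59.2 to 67.6 TPM in EpiLCs (-0.27, adjusted p = 0.419, and 0.09 without ESC replicate 2).

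Of 8 genes that supply sugar and sulfate precursors, 2 were higher and 2 lower (50% in all, against 45.4% of all genes, median -0.08). Slc35d1, a nucleotide sugar carrier, and Papss1, which makes the sulfate donor PAPS, were higher (log2 fold changes 0.78 and 0.30, edgeR adjusted p = 0.0051 and 0.0276), and Papss2 and the sulfate carrier Slc26a2 were lower (-2.80 and -0.52, edgeR adjusted p = 0.0188 and 0.017). Papss2 was at 1.77, 6.69 and 0.97 TPM in the ESC libraries 1, 2 and 3 and at 0.38 to 0.58 TPM in EpiLCs, and its log2 fold change was -1.62 without ESC replicate 2 (adjusted p = 0.0105). It lost its call without EpiLC replicate 1, 2 or 3 (adjusted p = 0.0704, 0.0538 and 0.0691) and with limma on log2(TPM + 1) (0.0603). Papss1 lost its call without ESC replicate 1 and without each EpiLC library (adjusted p from 0.0671 to 0.119), and Slc26a2 lost it without EpiLC replicates 1 and 3 (0.0617 and 0.0638).

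Of the 7 other proteins that carry heparan sulfate, 6 were called lower in EpiLCs (85.7%), Srgn among them, and 0 higher. Over all genes, 22.8% were lower and 45.4% passed in either direction. With at least 10 counts in every sample, Srgn was not tested and 5 were lower. Nrp1, a semaphorin and VEGF co-receptor, was at 22.9, 26.6 and 9.76 TPM in ESCs (replicates 1, 2 and 3) and at 1.40, 2.46 and 0.81 TPM in EpiLCs (log2 fold change -3.71, edgeR adjusted p = 0.00153). Hspg2, which encodes the basement membrane protein perlecan, was at 54.0, 93.9 and 52.2 TPM in ESCs and at 15.41, 17.51 and 12.01 TPM in EpiLCs (-2.21, adjusted p = 0.000813, and -1.88 without ESC replicate 2). Agrn (-0.63, adjusted p = 0.000775) and Tgfbr3 (-0.92, adjusted p = 0.0287) were also lower. Srgn, an intracellular granule proteoglycan, had 18, 10 and 18 counts in ESCs and 8, 7 and 5 counts in EpiLCs, and passed the filter only through the ESC libraries, so that its call is a description. Cd44, which carries heparan sulfate in some splice forms, was at 30.7, 114 and 11.5 TPM in ESCs and at 6.41 to 13.7 TPM in EpiLCs, and the groups overlapped. Its log2 fold change of -2.41 (adjusted p = 0.0412) became -1.12 without ESC replicate 2 (adjusted p = 0.0701), and the call held in 1 of 6 fits without a library (without ESC replicate 3). The other losses were without ESC replicate 1 (adjusted p = 0.0529) and EpiLC replicates 1, 2 and 3 (0.118, 0.0807 and 0.128), and with limma on log2(TPM + 1) and log2(TPM + 0.1) the adjusted p was 0.0895 and 0.0822. Col18a1, a collagen with heparan sulfate chains, was the most abundant of the list at 105 to 130 TPM in ESCs and 124 to 138 TPM in EpiLCs and did not pass (0.07, adjusted p = 0.576). Nrp1, Hspg2 and Cd44 had the ESC order of the fibroblast markers. Without ESC replicate 2, 5 of the 7 were lower.

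Of 7 genes listed as cytoplasmic partners of syndecans, 3 were lower and 0 higher (42.9% in all, against 45.4% of all genes, median -0.49). Sdcbp2 (syntenin-2) was at 2.78 to 3.67 TPM in ESCs and 0.63 to 0.94 TPM in EpiLCs (log2 fold change -2.03, edgeR adjusted p = 0.00146). The scaffold kinase Cask was at 12.95 to 17.41 TPM and 7.75 to 9.04 TPM (-0.89, adjusted p = 0.00163), and the RAC activator Tiam1 was at 20.5 to 25.8 TPM and 16.6 to 17.5 TPM (-0.49, adjusted p = 0.00687). Sdcbp (syntenin-1), the more abundant of the 2 syntenins at 47.8 to 68.5 TPM in ESCs and 51.3 to 64.8 TPM in EpiLCs, did not pass (-0.0059, adjusted p = 0.977).

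Chondroitin sulfate is the other chain that syndecans can carry, built on the same linkage sugars. Of 12 chondroitin genes, 2 were higher and 4 were lower (50% in all, against 45.4% of all genes, median -0.29). Chst3, a chondroitin 6-O-sulfotransferase, rose from 0.30 to 0.33 TPM in ESCs to 1.74 to 2.11 TPM in EpiLCs (log2 fold change 2.54, edgeR adjusted p = 0.000214), and Ust, a uronyl 2-O-sulfotransferase, from 1.43 to 2.99 TPM to 7.58 to 9.07 TPM (2.00, adjusted p = 0.00191). Chst15, which adds a 6-O-sulfate to sulfated N-acetylgalactosamine, fell from 13.7, 15.7 and 8.38 TPM to 1.21, 0.93 and 2.23 TPM (-3.15, adjusted p = 0.00101). Csgalnact1, which starts the chain, was at 0.59, 1.98 and 0.60 TPM in ESCs and 0.23 to 0.26 TPM in EpiLCs (-2.11, adjusted p = 0.0163, and -1.36 without ESC replicate 2), Chsy1 was lower by -0.55 (adjusted p = 0.012) and Dse by -0.38 (adjusted p = 0.0114). Csgalnact1 lost its call without EpiLC replicate 1, 2 or 3 (adjusted p = 0.0582, 0.0569 and 0.0587) and with limma on log2(TPM + 1) (0.0643), Chsy1 without EpiLC replicate 1 (0.0556) and Dse without EpiLC replicate 2 (0.0507). Without ESC replicate 2, 5 of the 12 were higher and 4 were lower, and 2 were lower without EpiLC replicate 1 or 2.

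**Figure D5:**
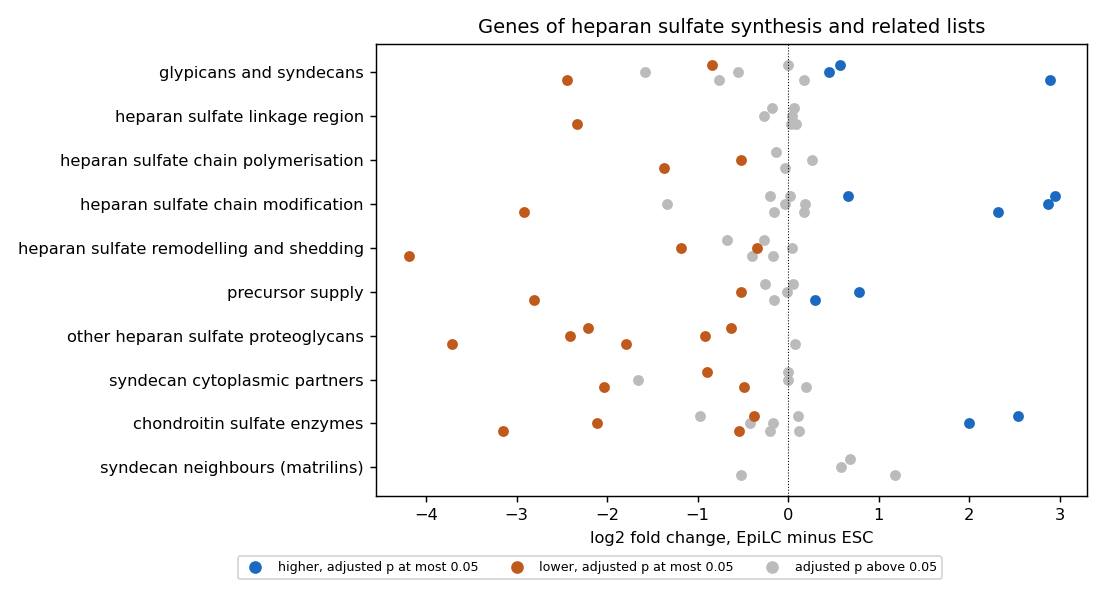
Log2 fold change, EpiLC minus ESC, of the 10 glypican and syndecan genes (top row) and of the 70 tested genes of the 9 lists, 1 row a list (blue, higher, and orange, lower, at an adjusted p of at most 0.05, and grey otherwise). The points lie offset within a row only to keep them apart, and Notum at -4.19 lies farthest left.

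Each syndecan gene has a matrilin gene on the same chromosome, and matrilins are matrix proteins of cartilage. Matn4 lies 19.1 kb from Sdc4 with no coding gene between. Matn1 lies 118.1 kb from Sdc3 with Laptm5 between, Matn3 154.2 kb from Sdc1 with Laptm4a between, and Matn2 1272 kb from Sdc2 with 5 coding genes between, among them Laptm4b. All 4 were low, from 0.03 to 3.46 TPM over the 6 libraries, and 0 of 4 passed at the edgeR adjusted p (log2 fold changes -0.52 for Matn1, 0.59 for Matn2, 1.18 for Matn3 and 0.69 for Matn4, with adjusted p = 0.511, 0.0668, 0.113 and 0.451). Without ESC replicate 2, Matn2 (0.72, adjusted p = 0.0401) and Matn3 (0.74, adjusted p = 0.0389) passed, as they did with limma on log2(TPM + 1) (0.41 and 0.90 on that scale, adjusted p = 0.0435 and 0.0469).

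The genes whose log2 CPM, centred on its mean over the 6 libraries, lay nearest to that of Gpc3 were Erap1, Plxna2 and Rasgrp1 (Euclidean distance 0.548, 0.548 and 0.665). Their Pearson correlations with Gpc3 were 0.985, 0.985 and 0.978. The 6 libraries form 2 groups, and any gene with a similar difference between them correlates highly. No such genes are given for Gpc5, which had 1 to 2 counts in each ESC library.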

How the data were processed

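Poly(A) RNA of WT ESCs and EpiLCs was sequenced by the authors as stranded single-end reads of 76 nt. Per the submitters' processing notes and the methods, reads were trimmed with cutadapt 1.16, mapped with STAR 2.5.2a and counted per gene with RSEM 1.3.0 against mm10 RefSeq genes, and the authors tested genes with DESeq2 1.16.1. Expected counts from RSEM, unnormalized and with multiply mapped reads divided among genes, were deposited by the authors (4.27% to 4.65% of values in a library not whole), together with TPM scaled by the authors for transcript length and library. EpiLCs are given as 48 h by the labels, whereas the culture methods give a longer time.

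Expected counts were rounded, filtered with filterByExpr (14468 of 24736 genes kept), normalized by TMM (factors 0.979 to 1.02) and compared over all genes by the quasi-likelihood test of edgeR 4.0.16 in R 4.3.3, with Benjamini-Hochberg adjustment and a threshold of 0.05. No replicate block was used. TPM values are shown as deposited, with SD over 3 libraries. Library totals of 16967741 to 35096210 put 3 counts at 0.0855 to 0.177 CPM, and counting intervals cover counting error only. Libraries are labelled as biological replicates of 1 cell line, with no further detail, so p-values measure the spread between these samples. No 2 libraries were duplicates.

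The members, gene lists and tests were chosen with earlier results of these data known. Named genes were all members, up to 4 higher and 4 lower per list by fold change among those past the threshold, Ext1, Ext2, Ndst1, Sulf1, Sulf2 and the matrilins, and, for members past the threshold with a log2 fold change above 1, the 3 genes of at least 10 CPM nearest in pattern (not given for Gpc5, whose ESC profile is set largely by the prior count of 2). Tgfbr3, Agrn, Col18a1, Sdcbp, Fap, Lum, T, Eomes, Mesp1, Evx1 and Gata6 were named after their values were seen. So were Prdm14, Mixl1, Gata4, Dab2, Sox17, Sox7 and Foxa2. No set test was run. Alternatives were DESeq2 1.42.0, RLE and upper-quartile normalization, no filter, a minimum of 10 counts in all libraries, the replicate block, omission of each library, and limma 3.58.1 on log2(TPM + 1) and log2(TPM + 0.1). Scripts were tested on simulated data.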

Additional observations from a re-analysis of the deposited data

How the results depend on the processing

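Of 79 values of the 10 genes under the other settings, 70 kept their direction and side of the threshold, 3 lost their call (Gpc4 and Gpc2 with the replicate block, at adjusted p = 0.0565 and 0.057, and Gpc4 with limma on log2(TPM + 1), at 0.0529) and 6 changed sign. All 6 sign changes were of Sdc4, whose log2 fold change of -0.0026 became 0.0253 with upper-quartile normalization, 0.0127 with no filter, 0.0034 with at least 10 counts in every sample, 0.0048 with the replicate block, and 0.0557 and 0.0566 with limma on log2(TPM + 1) and log2(TPM + 0.1). The number of glypicans and syndecans lower in EpiLCs went from 2 to 1 with the replicate block and with limma on log2(TPM + 1), and the number of listed heparan sulfate genes higher went from 8 to 5 with at least 10 counts in every sample, a filter that also left Gpc5 untested. Gpc5 had 0.39 on the log2(TPM + 1) scale, which understates changes of low genes. Leaving out 1 library at a time, the number of members higher was 1 to 3 and lower 1 to 4. Where only 1 member was higher, it was Gpc5. The listed genes were then 7 to 13 higher and 14 to 26 lower, and all genes 2144 to 3572 higher and 2100 to 3609 lower. The log2 fold change then ranged from -0.1118 to 0.169 for Sdc4, from -0.9848 to 0.4145 for Sdc2 and from -0.4788 to 0.0869 for Sulf1. Of the 60 member values without a library, 45 kept direction and call, 10 lost the call, 2 gained it and 3 changed sign. Of 273 values of named list genes under the other settings, 260 kept direction and call, 11 lost it and 2 gained it. Of their 210 values without a library, 179 kept direction and call, 28 lost it, 2 gained it and 1 changed sign. Where a call was lost the cause was not tested, except that fits without a library have fewer samples.

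The replicate numbers are shared by the groups, but the deviations of same-numbered libraries from their group means correlated at 0.007, 0.186 and 0.17, and ESC replicate 1 correlated best with EpiLC replicate 3 (0.084), so the numbers were not taken to pair the libraries. The replicate block changed the member calls of Gpc2 and Gpc4 named above and, of the named list genes, those of Extl1 (adjusted p = 0.061) and Papss1 (0.0651).

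Depth limits Gpc5, Hs3st4, Hs3st5 and Ndst3, which lie near the floor of 3 counts in ESCs. With 3 libraries a group, the wide ESC values of Sdc2, Sdc3 and Gpc6 leave wide intervals. The fibroblast marker sum differed between ESC libraries more than any member did, and mRNA says nothing of chain or protein amounts.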
